A study of Mus musculus with 2 samples.

Results

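A set of 9 genes whose products are used to sort or define skeletal stem and progenitor cells of the mouse was followed through single-cell transcriptomes of Cxcl12-GFP+ bone marrow cells. They were all 9 members of the set (Itgav, Cd200, Thy1, Eng, Ly6a, Pdgfra, Pdgfrb, Mcam and Nes), taken by their symbols from the 28006 features counted, and each symbol was found. Femurs of 2 mice were taken at postnatal day 28, and each mouse gave 1 library. Both mice had the genotype Cxcl12(GFP/+); Cxcl12-iCreER; R26R(tdTomato/+) and received tamoxifen at postnatal day 21, so every cell, whatever its class, carried a GFP allele at Cxcl12, the inducible recombinase driven by Cxcl12 sequences on a bacterial artificial chromosome, and the tdTomato reporter. There was no untreated or reporter-free group, so classes of cells from these mice were compared with each other. The label of the sort was not uniform: 1 protocol field names tdTomato+ cells, whereas the cell and design fields name GFP+ cells. The paper that reported the data describes a sort on high GFP for these mice, so every class is what passed that gate. The mice were kept on a mixed background. After enzymatic digestion of femurs without the distal growth plate about 18000 cells were loaded per library, and 2750 cells of Mouse #1 and 4582 cells of Mouse #2 passed the filter, with median depths of 12966.5 and 12190 UMIs. UMIs, short random barcodes added to each captured RNA molecule, were the counts used here. The libraries held 54940400 and 88790688 UMIs and shared 7 cell barcodes.

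The protein products of these genes serve as handles for purification. Integrin alpha V (Itgav), which pairs with several beta chains to bind vitronectin and fibronectin, and CD200, an immunoglobulin-family ligand, are required to be present, and Thy-1 and the TGF-beta co-receptor endoglin (Eng) to be absent, on one type of skeletal stem cell defined by flow cytometry. PDGF receptor alpha together with Sca-1, the product of Ly6a, defines another cell of perivascular position. PDGF receptor beta and the adhesion molecule MCAM are used for perivascular stromal cells, and nestin (Nes), an intermediate filament protein inside the cell and not on its surface, has been used through reporter genes. Transcript detection is not surface staining, and a cell without a UMI of a gene is not a cell shown to lack the protein.

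Cells were grouped by clustering on other genes: 50 genes were left out, the 9 members and the lists of 20 other stem and progenitor markers and 21 binding partners and relatives used below. Classes were named from marker lists. The reticular-like class (1250 and 2424 cells) held 8 of 8 reticular markers such as Adipoq and Lpl at a summed 17414 and 15035 CPM (UMIs of a gene or list per 1000000 UMIs of the class). The other classes were preosteoblast-like (424 and 804 cells), periosteal-like (75 and 239), osteoblast-like (14 and 62) and endothelial-like cells (151 and 138). Their clusters had 6 of 8 preosteoblast, 6 of 8 periosteal, 6 of 7 osteoblast and 8 of 8 endothelial markers raised. Endothelial-like cells were divided into arterial-like (121 and 92) and sinusoidal-like (27 and 31) sub-clusters, with 18 cells of neither kind. Blood cells of myeloid-like, lymphoid-like and erythroid-like classes (713 and 699 together, called hematopoietic below) are given beside each gene. They should lack Pdgfra, Pdgfrb and Nes, for which their level is a background, but some blood cells transcribe Itgav, Cd200, Thy1, Eng and Ly6a, for which it is only a comparison. No class of mural cells, chondrocytes or megakaryocytes was found. Periosteal-like cells also carried the preosteoblast list at a sum close to that of preosteoblast-like cells (14366 and 13816 against 14340 and 16671 CPM). They held the periosteal list at 4499 and 3476 CPM against 766 and 1096 CPM in preosteoblast-like cells and 981 and 974 CPM in reticular-like cells.

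The levels of the 9 genes divided the non-hematopoietic cells in a graded manner. Thy1 was near absent outside periosteal-like cells. Ly6a was abundant in periosteal-like and arterial-like cells and near absent in reticular-like and preosteoblast-like cells. Mcam was high only in endothelial-like cells among the classes compared, Pdgfra and Pdgfrb were stromal, and Itgav, Cd200 and Eng were above the hematopoietic level in each non-hematopoietic class other than, for Eng, osteoblast-like cells.

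**Figure D1:**
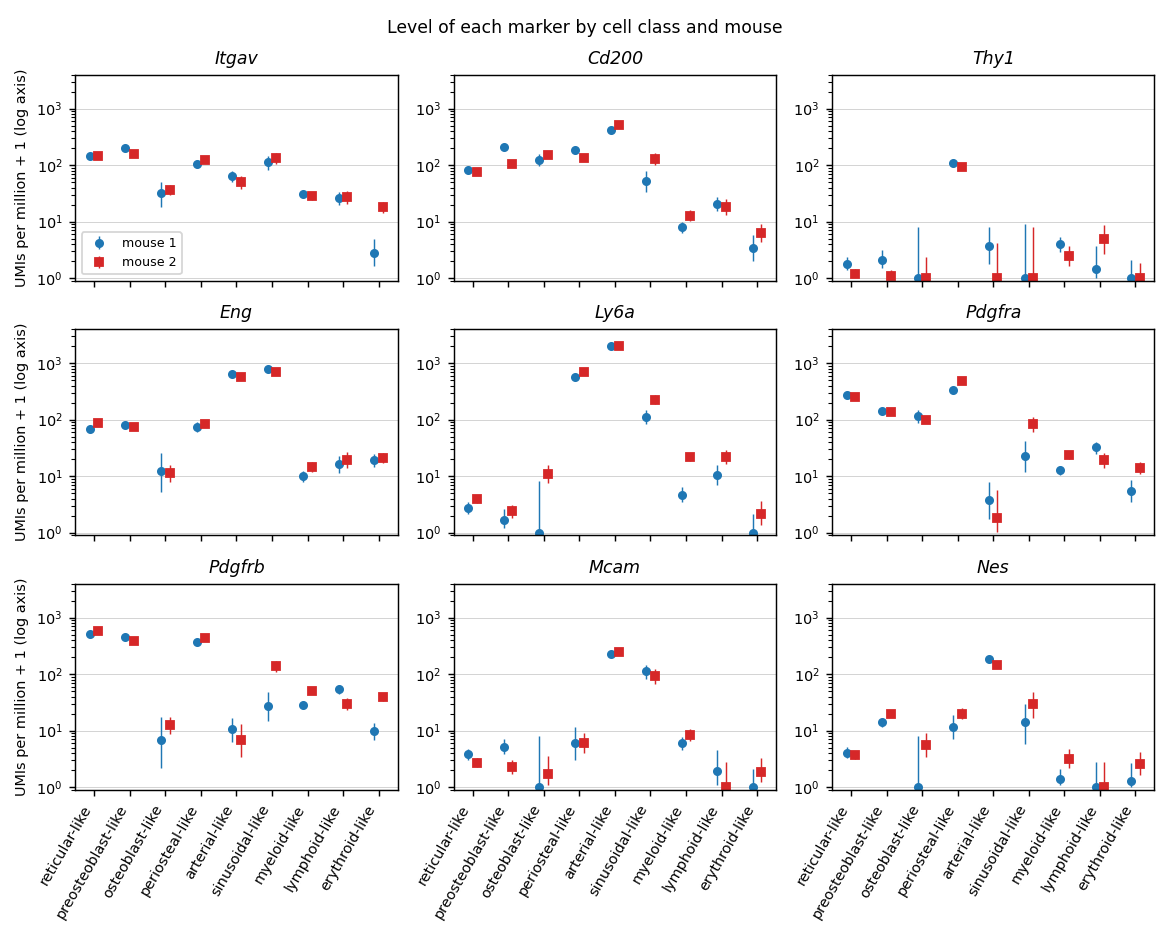
Level of each of the 9 genes (CPM plus 1, log axis) in 9 cell classes of Mouse #1 (circles) and Mouse #2 (squares), with exact Poisson 95% intervals that cover counting error only. Thy1 stood at 110 and 93.3 CPM in periosteal-like cells and under 4 CPM elsewhere, whereas Itgav ranged from 102 to 199 CPM in the reticular-like, preosteoblast-like and periosteal-like classes.

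Itgav lies at chr2:83724397-83806916 on the plus strand (GRCm38). It had 143 CPM in Mouse #1 and 142 CPM in Mouse #2 in reticular-like cells, 199 and 156 CPM in preosteoblast-like cells, 102 and 121 CPM in periosteal-like cells and 74.6 and 78.1 CPM in endothelial-like cells. Osteoblast-like cells had 30.6 and 35.2 CPM, close to the 22.1 and 23.3 CPM of hematopoietic cells. Preosteoblast-like cells were thus the highest of the named classes in both mice, and these classes stood in the same order in both. Cd200 lies at chr16:45382135-45409053 on the minus strand. Its levels were 79.8 and 75.1 CPM in reticular-like cells, 205 and 105 CPM in preosteoblast-like cells, 181 and 134 CPM in periosteal-like cells and 334 and 389 CPM in endothelial-like cells. Preosteoblast-like and periosteal-like cells changed places between the mice, and the mean in preosteoblast-like cells was 155 CPM ± 71.1 (SD, n = 2). Hematopoietic cells held 7.80 and 10.4 CPM.

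Thy1 lies at chr9:44043384-44048579 on the plus strand. Its level was 110 and 93.3 CPM in periosteal-like cells, a mean of 101 CPM ± 11.5 (SD, n = 2). Reticular-like cells had 0.791 and 0.198 CPM and preosteoblast-like cells 1.12 and 0.0695 CPM, no more than the 1.86 and 1.32 CPM of hematopoietic cells. Of 76 osteoblast-like cells none had a Thy1 UMI. Ly6a lies at chr15:74994877-74998031 on the minus strand, in a cluster of related Ly6 genes whose reads may in part be shared in counting. Its levels were 566 and 682 CPM in periosteal-like cells and 1539 and 1345 CPM in endothelial-like cells. In reticular-like cells it had 1.76 and 2.88 CPM and in preosteoblast-like cells 0.700 and 1.39 CPM, all below the 3.71 and 14.0 CPM of hematopoietic cells. Barcodes of 1 to 100 UMIs, which hold mostly free RNA, contained Ly6a at 71.1 and 41.1 CPM. They held Itgav at 128 and 142 CPM, Cd200 at 91.8 and 69.0 CPM and Eng at 72.2 and 78.3 CPM. Pdgfra was at 135 and 150 CPM in them and Pdgfrb at 242 and 288 CPM. Thy1 was at 5.83 and 2.21 CPM, Mcam at 13.2 and 9.07 CPM and Nes at 12.6 and 9.29 CPM. The part of free RNA in the levels of the classes was not tested.

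Pdgfra lies at chr5:75152292-75198215 on the plus strand. It was highest in periosteal-like cells (338 and 486 CPM), followed by reticular-like (274 and 252 CPM), preosteoblast-like (139 and 134 CPM) and osteoblast-like cells (113 and 98.0 CPM), in the same order in both mice. Endothelial-like cells had 7.16 and 24.1 CPM, beside 12.9 and 18.4 CPM in hematopoietic cells. Pdgfrb was highest in reticular-like cells, with 522 and 581 CPM, against 451 and 384 CPM in preosteoblast-like cells and 363 and 434 CPM in periosteal-like cells. Preosteoblast-like and periosteal-like cells were again in different order in the 2 mice. Unlike Pdgfra, Pdgfrb was not above background in osteoblast-like cells, with 5.74 and 11.5 CPM beside 27.1 and 42.7 CPM in hematopoietic cells.

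Eng lies at chr2:32646595-32682669 on the plus strand. It had 67.6 and 85.6 CPM in reticular-like cells, 79.6 and 74.1 CPM in preosteoblast-like cells and 74.3 and 82.7 CPM in periosteal-like cells, values whose ranges overlapped. Endothelial-like cells had 660 and 547 CPM. Osteoblast-like cells had 11.5 and 10.4 CPM, below the 12.2 and 16.5 CPM of hematopoietic cells. Mcam lies at chr9:44134469-44142727 on the plus strand. Its 202 and 251 CPM in endothelial-like cells contrasted with 2.80 and 1.72 CPM in reticular-like, 4.20 and 1.25 CPM in preosteoblast-like and 5.05 and 5.04 CPM in periosteal-like cells, beside 3.12 and 3.95 CPM in hematopoietic cells. Nes lies at chr3:87971078-87980451 on the plus strand. It had 147 and 131 CPM in endothelial-like cells, 13.0 and 19.0 CPM in preosteoblast-like cells, 10.8 and 19.1 CPM in periosteal-like cells and 3.10 and 2.71 CPM in reticular-like cells, and hematopoietic cells had 0.297 and 1.63 CPM. Because a 3' library counts 1 end of each transcript, these levels were not ranked between genes.

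The reticular-like class was made of 4 clusters (0, 2, 3 and 14). Pdgfrb had 489 and 547 CPM in cluster 0, 533 and 587 CPM in cluster 2 and 667 and 736 CPM in cluster 3, an order that was the same in both mice. Cluster 14, the smallest of them with 43 and 42 cells and a median of 3789 UMIs, had Pdgfra at 136 and 176 CPM, below the other 3 in each mouse. An unnamed cycling cluster led by Acta2 (cluster 11, 66 and 86 cells) had Nes at 38.0 and 28.2 CPM, the highest outside endothelial-like clusters, with Mcam at 24.1 and 7.55 CPM and Pdgfrb at 342 and 365 CPM. Among blood cells Itgav was at 153 and 130 CPM in cluster 18, a small myeloid-like cluster (21 cells in each mouse) led by the complement genes C1qa, C1qb and C1qc.

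**Figure D2:**
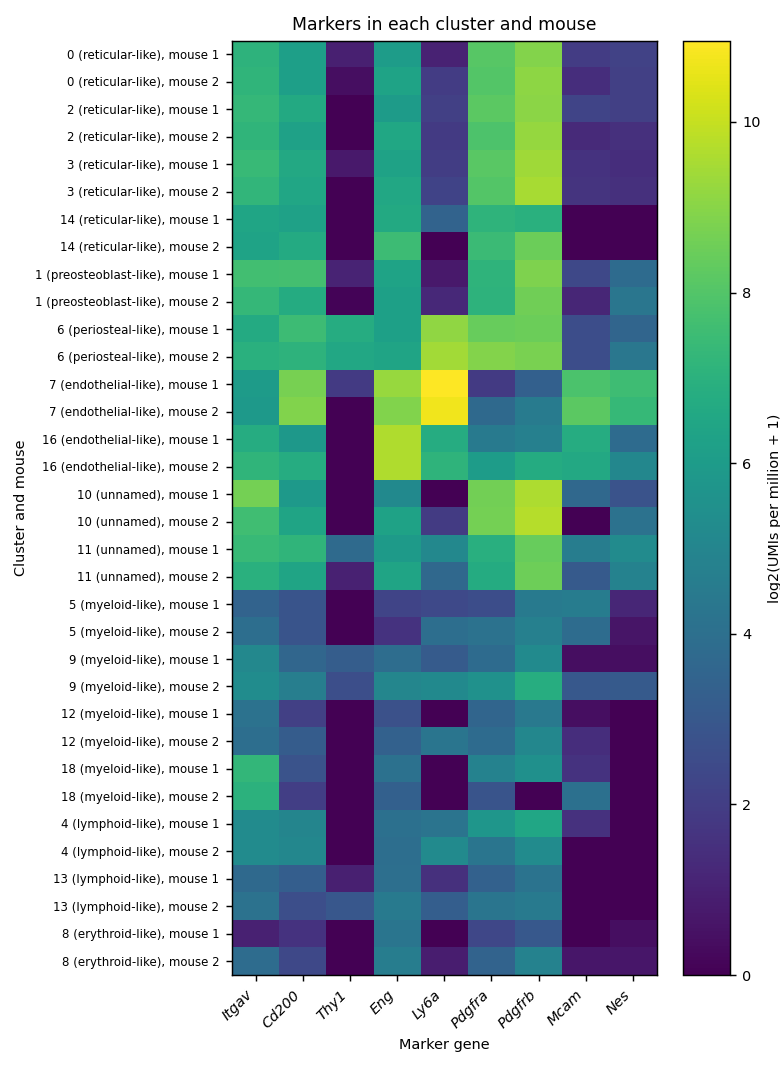
Level of the 9 genes, as log2(CPM + 1), in each cluster with 20 or more cells in both mice; rows give the cluster number, its class and the mouse, and brighter cells of the map are higher. Ly6a was brightest in cluster 7, with 1980 and 1687 CPM, and Thy1 in cluster 6, with 110 and 93.3 CPM.

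The difference between reticular-like and preosteoblast-like cells bears on whether transcripts of stem cell markers distinguish stroma with reticular markers from stroma with preosteoblast markers. With edgeR's quasi-likelihood test on UMIs summed per mouse, 4 of 9 members passed an adjusted p of 0.05, 2 in each direction, against 26.2% of the 12622 genes tested, 13.4% higher and 12.9% lower. Since the classes were made from other genes of the same cells, many genes differ between them by construction. Of the genes outside the clustering set and the lists 24.4% passed. They were counted in the same cells, so this share cannot show differences independent of the clustering. The fit held the reticular-like, preosteoblast-like, periosteal-like and endothelial-like sums of both mice. The p-values thus rest on a spread between 2 mice that is shared over all these classes, also those not compared here. The median log2 fold change was 0.02 for the members and -0.02 for all genes. Pdgfra was higher in reticular-like cells, by 1.00 ± 0.29 on the log2 scale (adjusted p = 0.0328), where ± gives the SE here and in the comparisons that follow. Nes was lower by -2.45 ± 0.24 (adjusted p = 0.000181) and Cd200 by -0.93 ± 0.27 (adjusted p = 0.0330). The log2 ratio of CPM + 1 of Cd200 was -1.35 in Mouse #1 and -0.48 in Mouse #2. Ly6a passed (1.12 ± 0.34, adjusted p = 0.0413) between levels that were both under that of hematopoietic cells, and 5 alternatives ended this call. Itgav (-0.26 ± 0.13, adjusted p = 0.175), Eng (0.05 ± 0.14, adjusted p = 0.832), Pdgfrb (0.46 ± 0.30, adjusted p = 0.305), Mcam and Thy1 did not pass. In a fit of the reticular-like and preosteoblast-like classes alone the Cd200 call was lost (adjusted p = 0.0544) and Pdgfrb passed (adjusted p = 0.0379).

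Other stem and progenitor markers also went in both directions. Of 19 tested, 5 were higher and 7 lower in reticular-like cells. Vcam1 (log2 fold change 2.06), an adhesion molecule, the leptin receptor Lepr (1.85) and the BMP antagonist Grem1 (1.71) were the largest among the higher. Acta2 (-5.77), smooth muscle actin, Gli1 (-4.31), a transcription factor of hedgehog signaling, and Pthlh (-4.09), a peptide hormone, were the largest among the lower. Of 20 binding partners and relatives, 4 were higher and 7 lower. The vitronectin gene Vtn (2.36), the TGF-beta co-receptor Tgfbr3 (1.42) and Ly6e (1.21), a relative of Ly6a, were higher. The ligand Pdgfc (-4.49), Itgb8 (-3.91), a beta chain that pairs with integrin alpha V, and fibronectin (Fn1, -3.89) were lower. Pdgfc stood at 19.6 and 23.2 CPM in preosteoblast-like cells and 1.22 and 0.694 CPM in reticular-like cells.

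Periosteal-like cells were set against both other stromal classes. These comparisons were chosen with earlier results of these data known, so their tests are not independent of them. Against reticular-like cells 4 of 9 members were higher and none lower, with 22.2% of all genes called, 12.7% higher and 9.51% lower. Thy1 (log2 fold change 7.94 ± 0.52, adjusted p = 1.99e-05) and Ly6a (8.09 ± 0.28, adjusted p = 1.43e-06) had the largest differences of the members. Nes (2.56 ± 0.30, adjusted p = 0.000405) and Cd200 (1.08 ± 0.28, adjusted p = 0.0234) followed. Pdgfra at 0.73 ± 0.29 did not pass (adjusted p = 0.106), although it did in a fit of these classes alone (adjusted p = 0.0267) and with the highest doublet scores left out (adjusted p = 0.0365). The members' median log2 fold change was 1.08, against -0.01 over all genes.

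Against preosteoblast-like cells 3 members were higher and 1 lower, with 22.2% of all genes called, 13.3% higher and 8.92% lower. Ly6a (9.21 ± 0.32, adjusted p = 1.67e-06), Thy1 (7.96 ± 0.58, adjusted p = 3.21e-05) and Pdgfra (1.73 ± 0.30, adjusted p = 0.00348) were higher. Itgav was lower by -0.52 ± 0.14 (adjusted p = 0.0243), a call lost in a fit of these classes alone (adjusted p = 0.0699). Cd200 (0.15 ± 0.28), Eng (0.17 ± 0.15), Pdgfrb (0.07 ± 0.30) and Nes (0.11 ± 0.26) did not pass. The members' median was 0.17 and that of all genes -0.03. The Ly6a signal was set beside the endothelial markers, whose summed level in periosteal-like cells was 36.8 and 16.8 CPM, against 16.6 and 21.2 CPM in reticular-like cells. Of the 8 endothelial markers, 4 had UMIs in the 75 periosteal-like cells of Mouse #1 (Cdh5, Flt1, Cldn5 and Tie1 had none) and all 8 had UMIs in the 239 of Mouse #2. The part of this endothelial signal in the Ly6a difference was not tested.

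**Figure D3:**
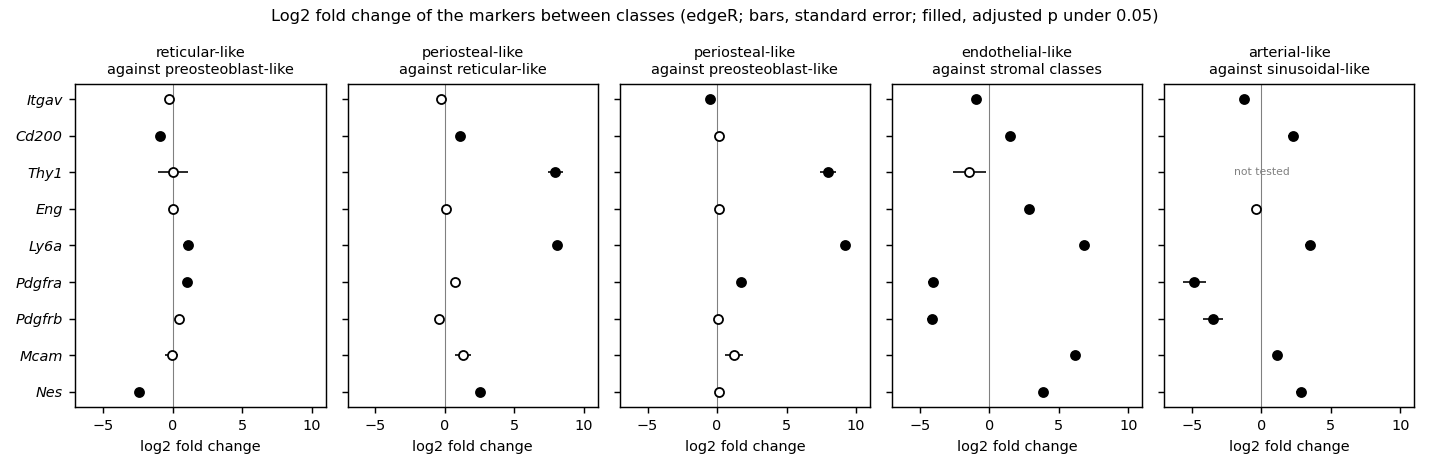
Log2 fold change of the 9 genes in 5 comparisons of cell classes (edgeR's quasi-likelihood fit, bars give the standard error); filled points passed an adjusted p of 0.05, and Thy1 was not tested between arterial-like and sinusoidal-like cells. Thy1 and Ly6a stood near 8 in the comparison of periosteal-like with reticular-like cells (7.94 and 8.09), while Eng was near 0 between the stromal classes (0.05 to 0.17).

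Of the other stem and progenitor markers, 10 of 19 were higher and 2 lower in periosteal-like than in reticular-like cells. Cd34 (8.94), a sialomucin of progenitors and vessels, Pthlh (8.30) and Gli1 (7.19) had the largest increases, and Grem1 (-4.20) and Vcam1 (-1.64) were lower. Pthlh rested on 33.9 and 126 CPM in periosteal-like cells, against 0 and 0.430 CPM in reticular-like cells. Against preosteoblast-like cells 8 were higher, led by podoplanin (Pdpn, 7.37), Cd34 (7.01) and Pthlh (4.20), and 4 were lower, among them Acta2 (-3.31), Nt5e (-3.16), the gene of the ectonucleotidase CD73, and Grem1 (-2.49). Among partners and relatives, 8 of 20 were higher and 2 lower against reticular-like cells: Ly6c1 (7.87), a further gene of the Ly6 family, Itgb8 (4.55) and Fn1 (2.57) rose most, and Tgfbr3 (-1.93) and the ligand Pdgfa (-0.98) fell. Against preosteoblast-like cells Ly6c1 (6.45), Ly6e (2.69) and the TGF-beta receptor Tgfbr2 (1.99) were the largest of 6 higher genes, and Pdgfc (-4.01), Pdgfa (-1.65) and Fn1 (-1.32) were the 3 lower. Cd34 and Ly6c1 were thus raised beside Ly6a in both comparisons.

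Endothelial-like cells were compared with the mean of the log levels in the 3 stromal classes. Here 8 of 9 members passed, 5 higher and 3 lower, with 52.4% of all genes called, 26.6% higher and 25.9% lower. Ly6a (6.84 ± 0.17, adjusted p = 6.11e-09), Mcam (6.19 ± 0.25, adjusted p = 1.19e-07), Nes (3.86 ± 0.17, adjusted p = 1.71e-07), Eng (2.89 ± 0.11, adjusted p = 7.14e-08) and Cd200 (1.49 ± 0.21, adjusted p = 0.000340) were higher. The fold change of Ly6a was relative to 2 classes with under 3 CPM and 1, the periosteal-like class, in which it was abundant. Pdgfrb (-4.13 ± 0.35, adjusted p = 1.20e-05), Pdgfra (-4.04 ± 0.35, adjusted p = 1.47e-05) and Itgav (-0.96 ± 0.12, adjusted p = 0.000185) were lower. In the single mice the log2 ratio of CPM + 1 was -4.85 and -3.34 for Pdgfra, -4.95 and -3.47 for Pdgfrb and 5.37 and 6.24 for Mcam. Thy1 did not pass (-1.44 ± 1.19, adjusted p = 0.347), its stromal level being carried by periosteal-like cells. The members' median was 1.49 and that of all genes -0.04.

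The 250 bases before the RefSeq start site (GRCm38.p6) are shown for Eng and Pdgfra, which differed between endothelial-like and stromal cells in opposite directions. The capitals mark AGGAAG, a sequence bound by many ETS-family factors, or its reverse complement.
Eng, chr2:32646345-32646594, plus strand: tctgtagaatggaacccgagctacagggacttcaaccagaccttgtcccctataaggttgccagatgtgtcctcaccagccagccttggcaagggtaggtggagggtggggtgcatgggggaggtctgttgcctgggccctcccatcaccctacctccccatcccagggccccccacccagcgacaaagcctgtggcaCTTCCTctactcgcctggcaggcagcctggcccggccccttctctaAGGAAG
Pdgfra, chr5:75152001-75152250, plus strand: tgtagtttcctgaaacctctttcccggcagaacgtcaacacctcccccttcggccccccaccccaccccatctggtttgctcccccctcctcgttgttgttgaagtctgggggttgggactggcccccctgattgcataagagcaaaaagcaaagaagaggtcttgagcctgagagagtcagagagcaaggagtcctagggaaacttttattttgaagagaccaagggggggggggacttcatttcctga
Searched on both strands, AGGAAG occurred 2 times before Eng and 1 time before Itgav, and not in the windows of Pdgfra, Nes, Mcam or Cd200. At least 1 copy was present in 29.5% of 32851 windows of this length. GGGCGG, the GC box, does not overlap AGGAAG. It occurred 5 times before Mcam, 2 times before Nes and 1 time before Cd200, and in 32.7% of all windows. A match describes these letters and does not show a bound site.

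Among other stem and progenitor markers, 4 of 19 were higher and 10 lower in endothelial-like cells. The angiopoietin receptor gene Tek (8.35), Cd34 (7.60) and Cd24a (2.50) were the largest of the higher. Pdpn and Cspg4, the gene of the NG2 proteoglycan, had no UMI in endothelial-like cells of either mouse, and Prrx1, a mesenchymal transcription factor, was lower by -3.94. Of 20 partners and relatives, 9 were higher and 4 lower. The ligand gene Pdgfb (9.19) stood at 149 and 181 CPM in endothelial-like cells, and Ly6c1 (8.25) and Ly6e (3.57) rose with Ly6a. Itgb5 (-3.84), Pdgfc (-1.96) and Tgfbr3 (-1.17) had the largest decreases. The type I receptor Acvrl1, with which endoglin acts, passed as well and is named here after its values were seen, with 187 and 163 CPM in endothelial-like cells and a mean of 27.6 and 21 CPM over the stromal classes.

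Arterial-like and sinusoidal-like cells are the vessel types between which marrow stem cell niches are usually divided. Of 8 members tested, 4 were higher and 3 lower in arterial-like cells, with 22.6% of 8091 genes called, 9.39% higher and 13.2% lower. Ly6a had 2009 and 2002 CPM in arterial-like and 111 and 225 CPM in sinusoidal-like cells, a log2 fold change of 3.46 ± 0.30 (adjusted p = 0.000355). Nes had 182 and 146 CPM against 13.3 and 28.3 CPM (2.84 ± 0.32, adjusted p = 0.00102). Cd200 had 424 and 503 CPM against 50.9 and 127 CPM (2.26 ± 0.35, adjusted p = 0.00378), and Mcam 222 and 242 CPM against 111 and 90.7 CPM (1.11 ± 0.19, adjusted p = 0.00512). For these 4 genes the ranges of the vessel types did not overlap. The log2 ratio of CPM + 1 in the single mice was 4.17 and 3.15 for Ly6a, 3.68 and 2.33 for Nes and 3.03 and 1.98 for Cd200. Itgav went the other way, with 62.1 and 48.3 CPM in arterial-like and 111 and 130 CPM in sinusoidal-like cells (-1.22 ± 0.22, adjusted p = 0.00740). Eng did not pass (-0.43 ± 0.16, adjusted p = 0.0942), with 631 and 556 CPM in arterial-like and 795 and 697 CPM in sinusoidal-like cells. It passed with the highest doublet scores left out (adjusted p = 0.0175).

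Pdgfra (-4.82 ± 0.80, adjusted p = 0.00481) and Pdgfrb (-3.48 ± 0.73, adjusted p = 0.0129) were also lower in arterial-like cells. In sinusoidal-like cells they stood at 22.1 and 26.6 CPM in Mouse #1, and at 81.3 and 136 CPM in Mouse #2, above the 18.4 and 42.7 CPM of its hematopoietic cells. The log2 ratio of Pdgfra was -2.63 in Mouse #1 and -5.48 in Mouse #2, and that of Pdgfrb -1.38 and -4.31. The 8 reticular markers were summed at 1848 and 3571 CPM in sinusoidal-like cells and at 485 and 384 CPM in arterial-like cells, with all 8 detected in each. The preosteoblast list stood at 4274 and 4452 CPM against 194 and 288 CPM. The list of mural markers stood at 1279 and 1207 CPM in sinusoidal-like and 318 and 22.9 CPM in arterial-like cells. Of its 8 markers, 4 and 5 had UMIs in sinusoidal-like and 7 and 5 in arterial-like cells. The part of this stromal and mural signal in the Pdgfra and Pdgfrb difference was not tested. Arterial-like cells in turn held the myeloid list at 5570 and 6864 CPM, against 259 and 200 CPM in sinusoidal-like cells, and neutrophil granule genes such as Ngp, Camp and S100a8 led that sub-cluster by fold over the other endothelial-like cells. The part of this myeloid signal in the differences was not tested. Myeloid-like cells themselves had Ly6a at 3.72 and 20.9 CPM and Nes at 0.372 and 2.20 CPM. When clusters 7 and 16 of all cells replaced the sub-clusters, an alternative chosen after seeing the data, 7 members passed again. The share of all genes passing in it is not given here. These clusters (123 and 110, and 28 and 28 cells) divide the same endothelial-like cells, so the result is not independent of the sub-clusters. No cell was left out for its myeloid signal. Cluster 7 was led by the arterial genes Gja4, Sema3g and Sox17 by fold over all other clusters, blood cells included. Ly6a was then at 3.76, Nes at 2.82 and Pdgfra at -2.60, Eng passed (-0.66, adjusted p = 0.0381) and Pdgfrb did not (-2.14, adjusted p = 0.0555).

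Of 12 other stem and progenitor markers tested here, 4 were higher in arterial-like cells, led by Acta2 (4.09), Cd34 (3.98) and Pthlh (3.52), and 7 were lower, led by Grem1 (-4.43), the cathepsin gene Ctsk (-4.37) and Prrx1 (-4.20). In sinusoidal-like cells Grem1 stood at 59.8 and 183 CPM and Prrx1 at 57.6 and 125 CPM, and the part of the stromal marker signal given above in these differences was not tested. Of 15 partners and relatives, 7 were higher, led by Ly6c1 (4.10), Pdgfb (3.16) and vimentin (Vim, 3.00), and 2 were lower, Itgb5 (-3.86) and Tgfbr3 (-3.76).

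Reticular-like cells were split on tdTomato UMIs, the reporter of Cxcl12-creER, with 496 and 980 positive and 754 and 1444 negative cells. The cut was taken from hematopoietic cells and was 8.74 and 14.6 tdTomato UMIs per 10000 UMIs. A cut at a lower percentile gave 543 and 1265 positive cells. Cells under the cut can hold tdTomato UMIs, so the negative cells were not shown to be unmarked. The split therefore compares higher with lower tdTomato levels, and marked against unmarked cells was not tested. In the main fit, which left the mouse out, none of 8 members and none of 12234 genes passed (0.00%). In it 485 genes had an unadjusted p under 0.05, and DESeq2 called 11 genes and no member. Thy1 was not tested. With the mouse as a block, 601 genes passed, and Itgav was the 1 member among them. Its log2 fold change was -0.30 (adjusted p = 0.000251), from 155 CPM in the negative cells of both mice to 125 and 122 CPM in the positive ones. For Pdgfra the positive cells had 290 and 260 CPM and the negative ones 262 and 246 CPM, a log2 difference of 0.14 ± 0.09 (adjusted p = 0.975).

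Whether combinations of these markers occurred within single cells was asked after thinning each cell to 2000 UMIs, which removes differences of depth. The combinations held members only, and no gene of the other lists was asked to be present or absent. They need not match a full sorting scheme. Thinning lowers the share of cells with a UMI of a gene, but can raise a share that asks for the absence of UMIs. Cells with Itgav and Cd200 and without Thy1 and Eng UMIs made up 7.33% of preosteoblast-like cells of Mouse #1, with a 95% Wilson interval from 5.21 to 10.2%, and 4.13% of those of Mouse #2, with an interval from 2.95 to 5.74%. In reticular-like cells they were 2.64% in both mice (1.89 to 3.69% and 2.08 to 3.36%). Periosteal-like cells gave 2.67% and 4.62%, and hematopoietic cells 0.281% and 0.287%. Endothelial-like cells gave 0 of 151, which allows up to 1.99%, and 7 of 138 (5.07%), so in Mouse #2 their share was above that of preosteoblast-like cells. Osteoblast-like cells gave 1 of 14 and 0 of 62. The preosteoblast-like share was above the reticular-like share in both mice, although the intervals overlapped in Mouse #2. The shares were close to those obtained by multiplying the shares of the single genes within clusters, 7.34% and 3.34% in preosteoblast-like and 2.82% and 2.74% in reticular-like cells. Without thinning the combination was found in 27.8% and 22.9% of preosteoblast-like cells, 19.0% and 18.2% of reticular-like cells, 8% and 8.79% of periosteal-like cells and 0% and 2.17% of endothelial-like cells, at median depths of 15235.5 and 16120.5, 12380 and 11586, 17873 and 14536, and 10726 and 11868.5 UMIs. Because the combination asks for the absence of UMIs, both presence and absence in it moved with depth. Of the 75 and 123 non-hematopoietic cells with the combination, 33 and 64 were reticular-like, 31 and 33 preosteoblast-like and 2 and 11 periosteal-like.

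After thinning, most cells with both Pdgfra and Ly6a were periosteal-like. Both were present in 15 of 75 cells of Mouse #1 (20%, interval 12.5 to 30.4%) and in 72 of 238 cells of Mouse #2 (30.3%, 24.8 to 36.4%). Independent detection within the cluster would give 20.6% and 25.5%. Of the 17 and 79 non-hematopoietic cells with both transcripts, 15 and 72 were periosteal-like. Reticular-like cells gave 0.0801% and 0.248%, and hematopoietic cells 0% (0 of 712 cells, which allows up to 0.421%) and 0.430%. Without thinning, 78.7% and 72.4% of periosteal-like cells had both, against 0.140% and 1.29% of hematopoietic cells, whose median depth was 12995 and 10642 UMIs. The cells with both were then less concentrated: 59 and 173 were periosteal-like, 20 and 60 reticular-like (1.60% and 2.48% of that class), 4 and 15 preosteoblast-like and 6 and 9 endothelial-like. In arterial-like cells, where Ly6a was detected without Pdgfra in 91.7% and 89.1% of cells, no cell had both after thinning (0 of 121 and 0 of 92, which allow up to 2.48% and 3.26%), whereas 4 of 121 (3.31%) and 1 of 92 (1.09%) had both without thinning.

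**Figure D4:**
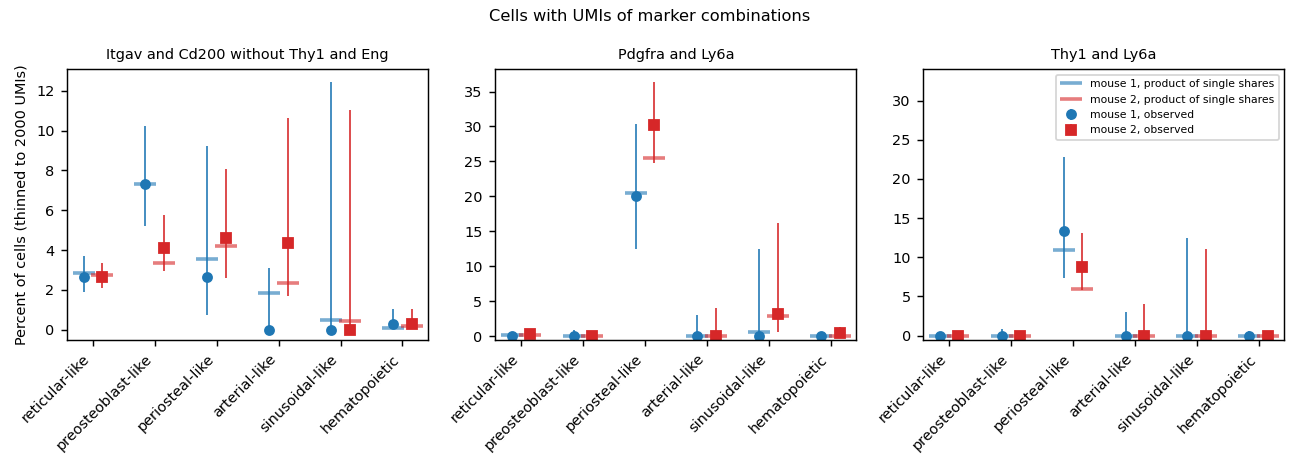
Percent of cells with UMIs of 3 gene combinations after thinning to 2000 UMIs per cell, by class and mouse; points with bars are observed shares with 95% Wilson intervals, which cover counting error only, and dashes are the products of the single shares within clusters. Pdgfra with Ly6a reached 20% and 30.3% in periosteal-like cells, and Itgav with Cd200 without Thy1 and Eng 7.33% and 4.13% in preosteoblast-like cells.

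Thy1 and Ly6a occurred together in 10 of 75 and 21 of 238 periosteal-like cells (13.3% and 8.82%), and in no reticular-like, preosteoblast-like or endothelial-like cell after thinning. Ly6a was detected in 55.6% and 70.0% of periosteal-like cells with a Thy1 UMI and in 42.1% and 43.8% of those without. The number of cells with both was 1.23 and 1.49 times the product of the single shares. Across all pairs of members with 5 or more cells to be found by that product in each mouse, the ratio lay between 0.894 and 1.11 in reticular-like cells (10 pairs), 0.901 and 1.45 in preosteoblast-like cells (11 pairs), 0.661 and 1.49 in periosteal-like cells (13 pairs) and 0.692 and 1.30 in arterial-like cells (13 pairs). The highest ratio in preosteoblast-like cells was that of Eng with Pdgfra, at 1.20 and 1.45. In reticular-like cells 2 pairs were above 1 in both mice, Pdgfra with Pdgfrb (1.05 and 1.04) and Cd200 with Pdgfrb (1.05 and 1.05), and 2 were below 1 in both, Itgav with Cd200 (0.978 and 0.965) and Cd200 with Pdgfra (0.976 and 0.985). In preosteoblast-like cells 6 pairs were above 1 in both mice and 0 below, in periosteal-like cells 2 and 3, and in arterial-like cells 4 and 3. No test over cells was made, because cells of 1 mouse are not replicates.

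The genes whose pattern over clusters was most like that of each member were sought by Pearson's r of log2(CPM + 1) over 34 sums of 17 clusters and 2 mice, which share libraries and clusters, among 12622 genes. Ly6a was closest to Ly6c1 (0.91), Cd34 (0.89) and Ltbp4 (0.86), and Thy1 to Igfbp6 (0.88), Calca (0.88) and Mrgprf (0.85). Cd200 was closest to Pls3 (0.96) and to the basement membrane collagens Col4a2 (0.95) and Col4a1 (0.95). Pdgfra was nearest to Cyp1b1 (0.98), Ptprd (0.97) and Plxdc2 (0.97), and Pdgfrb to Rbms3 (0.98), Fat1 (0.97) and Zfhx4 (0.97). Mcam went with Clec1a (0.84), Crybb3 (0.83) and Esam (0.83), Nes with Eml1 (0.95), Tdrp (0.90) and Syn3 (0.90), Eng with Zfp664 (0.91), Srgap1 (0.91) and 9430020K01Rik (0.91), and Itgav with Mdfic (0.95), Bcl9l (0.94) and Rrbp1 (0.94). These values describe likeness over the clusters of these mice.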

How the data were processed

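The members and gene lists were chosen with earlier results of these data known. UMI counts per gene and cell were deposited by the authors as raw, unnormalised 10x 3' matrices of 2 libraries (Cell Ranger 3.0.0 per the matrix header, mm10 with reporter sequences). The annotation release and the strand rule of counting are not given in the sources used here. Barcodes with 1000 or more genes and at most 15% mitochondrial UMIs were kept. Cells were scaled to 10000 UMIs, and 2000 variable genes, 30 components and 15 neighbours went into Leiden clustering at a resolution of 0.5 (scanpy 1.11.5, leidenalg 0.10.2, Python 3.11.15). Scrublet marked 2 and 3 cells (0.0727% and 0.0655%), so it had not worked as a caller. Doublets were kept, and in an alternative the 60 and 168 cells with the highest scores were left out. A reticular-like cell was tdTomato-positive above the 99th percentile of hematopoietic cells. Counts were summed per mouse and class and tested by edgeR 4.0.16 in R 4.3.3 (TMM, filterByExpr, quasi-likelihood, Benjamini-Hochberg over all genes tested, calls at an adjusted p under 0.05). DESeq2 1.42.0 and other filters, resolutions and thresholds were alternatives. The fit was run on simulated counts of independent sums, which do not carry the pairing of classes within a mouse.

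The classes of 1 mouse come from the same animal, which pairs them. The main fits left this pairing out, and the mouse was a block only in an alternative. The correlation of their deviations between classes was 0.0945 to 0.300, 0.110 between the vessel types and 0.513 between tdTomato-positive and negative cells. The genes named were all members, up to 3 called genes of each other list in each direction with the largest log2 fold change, and the 3 genes closest to each member by correlation among those kept by filterByExpr. For thinning, 6 and 21 cells under 2000 UMIs were left out. Intervals cover counting error only, and a count of 0 allows up to 3 counts.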

Additional observations from a re-analysis of the deposited data

Results flagged for a closer look

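A pair of members stood above every named class in cluster 10, an unnamed group of 51 and 120 cells that no comparison used. Itgav had a mean of 301 CPM (408 and 194 CPM in the 2 mice), and Pdgfrb a mean of 821 CPM (786 and 857 CPM). The cells were shallow, with a median of 2926 UMIs, and the levels rested on 68 and 71 Itgav UMIs and 131 and 313 Pdgfrb UMIs. Hematopoietic cells had 22.1 and 23.3 CPM of Itgav and 27.1 and 42.7 CPM of Pdgfrb. The cluster was led by Mir143hg and other noncoding transcripts.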

How the results depend on the processing

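A count of members called was taken as unchanged within 1.5 times the reported count (0 for a count of 0), and a share of cells within 1 SD between the mice. By these limits 58 counts and shares under the alternatives were unchanged and 6 were not. Each of 2 mice always lies within 1 SD of their mean. The shares with 1 mouse left out were thus unchanged by construction, and they are among the 58. Without a filter on low counts 7 members passed between periosteal-like and reticular-like cells. The share of all genes passing in that fit is not given here, so the count is not read as particular to the members. With the replicate block 1 member passed in the tdTomato comparison, and the block changed no other call of a member. The share of preosteoblast-like cells with Itgav and Cd200 and without Thy1 and Eng was 5.73% ± 2.27 (SD, n = 2) as reported, 25.4% without thinning and 2.44% at 1000 UMIs per cell, and ranged from 4.13 to 7.33% when each mouse was left out. The share of periosteal-like cells with Pdgfra and Ly6a was 25.1% ± 7.25 (SD, n = 2), 75.5% without thinning and 13.0% at 1000 UMIs, and ranged from 20 to 30.3% when each mouse was left out. Among single members, 528 values were counted as unchanged, 14 passed only under the alternative, 8 no longer passed and 10 were counted as reversed. A value from 1 mouse has no test and was counted as reversed only for a member that had passed. The unchanged values therefore include members that did not pass and changed sign between the mice. Those counted as reversed were small differences that did not pass in either setting. Between reticular-like and preosteoblast-like cells Thy1 was at -0.15 with DESeq2, -0.067 with 500 genes and 20% mitochondrial UMIs, -0.19 with 2000 genes and 10%, and -0.062 with the highest doublet scores left out, and Mcam was at 0.39 with 2000 genes and 10% and 0.17 at a resolution of 1.0. Between tdTomato-positive and negative cells, leaving out the highest doublet scores gave -0.045 for Eng and 0.0045 for Pdgfrb, and the 95th percentile gave -0.068 and 0.023. For Ly6a between reticular-like and preosteoblast-like cells the adjusted p of edgeR's test was 0.107 with these classes alone, 0.0530 with 500 genes, 0.411 with 2000 genes, 0.0805 at a resolution of 0.3 and 0.0504 without the highest doublet scores. The cause was not tested. With 2 mice, leaving out 1 leaves a value with no test.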
